A study of Homo sapiens with 58 samples.

Results

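The compound dTAGV-1 was given to cranial neural crest cells (CNCCs) that carry no tag on SOX9, and the open chromatin of these untagged wild-type (WT) cells was read by ATAC-seq. The 10 WT samples among the 58 samples of the series were taken by genotype and dose from the sample labels: 6 had 500 nM dTAGV-1 and 4 had no dTAGV-1. All 10 were P4 CNCCs made from H9, a widely used line of human embryonic stem cells. In differentiation batches R4 and R5, 1 vehicle (DMSO) sample labelled 24 h stood beside 1 sample with 24 h of 500 nM and 1 with 3 h of 500 nM after 21 h of vehicle. In batches R8 and RSh, 1 vehicle sample stood beside 1 sample with 500 nM, both labelled 48 h. The 3 h and 24 h comparisons thus shared their vehicle samples, no time point was measured in all 4 differentiations, and time could not be told apart from differentiation between 48 h and the earlier times. The other genotype, used for comparison, carried an FKBP12-F36V degron with V5 and mNeonGreen on endogenous SOX9 in 2 clones, S9CC13 and S9CC47; 7 replicates (clone by differentiation) had both 0 and 500 nM for 48 h, and are called SOX9-tagged. SOX9 protein in these untagged cells is read by none of the values below.

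dTAGV-1 is a bivalent molecule: one end binds the engineered FKBP12-F36V pocket and the other binds VHL, the substrate receptor of a cullin-2 ubiquitin ligase whose best known natural substrates are the hydroxylated HIF alpha subunits. A protein fused to the degron is ubiquitinated and sent to the proteasome when the compound bridges it to VHL. Untagged cells hold the compound and the ligase but no fused protein, so they serve as the control for what the compound does on its own. SOX9 is an HMG-box transcription factor of neural crest and cartilage that binds a short A- and T-rich core.

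ATAC-seq reads had been counted over 151,457 regulatory elements (REs), of which 24.7% lay within 1000 bp of an annotated transcript start. Totals over these REs ran from 50474281 to 71359570 reads in the vehicle samples and from 51467888 to 81040023 reads in the treated samples, with medians of 133 to 197 reads per RE. Over all 45 pairs of WT libraries the lowest reduced chi-square of the counts was 2.18, where sampling noise alone gives about 1, so no library was a second copy of another. The 37 REs at the promoters of 17 CNCC genes (TFAP2A, TWIST1, NR2F1, ALX1 and others) summed to 822 to 922 counts per 1000000 reads (CPM) in the vehicle samples. In the treated samples they summed to 781 to 961 CPM. Markers of other cell types had promoter REs too, at 8 of 10 pluripotency genes (12 REs, 109 to 155 CPM over the 10 libraries), 5 of 6 neuroectoderm genes (13 REs, 49.7 to 64.8 CPM), 5 of 7 melanocyte and glia genes (14 REs, 167 to 193 CPM), 6 of 6 epithelial genes (12 REs, 46.6 to 68.4 CPM), 2 of 4 muscle genes (3 REs, 8.34 to 12.1 CPM) and 3 of 4 endothelial genes (5 REs, 23.6 to 38.7 CPM). None was found for NANOG, DNMT3L, HES5, TYR, DCT, MYF5, DES and PECAM1. The lists hold unequal numbers of REs. The mean per RE was 23.1 CPM for the CNCC list, and ran from 3.28 (muscle) to 12.6 CPM (melanocyte and glia) in the others. In every list the range of the treated samples overlapped that of the vehicle samples. The differentiations are not separate donors, so every p below rests on 1 cell line. The pooled p is not a measure of spread between differentiations alone. It counts the 3 h and 24 h libraries of R4, and those of R5, as separate treated samples, though they share a vehicle library. Every p that uses SOX9-tagged cells also holds the spread between clones in their response. Differences in level between clones are taken out only in the test of the difference between genotypes, where clone by differentiation is the block.

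The stretches that the results turn on are printed first, each as 200 bases around the centre of its RE on the + strand of hg38. The first pair holds the REs of lowest p at 3 h and at 24 h, with the letters GGAAT on either strand in capitals. The single stretch after them is the RE of lowest p over all times. The last stretch is an RE that fell strongly in SOX9-tagged cells, with the SOX letters in capitals, which are ACAAAG on either strand and likewise the variant ACAATG in place of it.

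GGAAT-rich RE, chr16:34588024-34588223: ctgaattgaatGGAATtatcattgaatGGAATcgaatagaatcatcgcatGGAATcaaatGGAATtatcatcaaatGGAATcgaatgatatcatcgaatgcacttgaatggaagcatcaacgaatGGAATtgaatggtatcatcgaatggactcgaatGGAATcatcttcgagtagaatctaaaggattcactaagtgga
GGAAT-rich RE, chr16:46394654-46394853: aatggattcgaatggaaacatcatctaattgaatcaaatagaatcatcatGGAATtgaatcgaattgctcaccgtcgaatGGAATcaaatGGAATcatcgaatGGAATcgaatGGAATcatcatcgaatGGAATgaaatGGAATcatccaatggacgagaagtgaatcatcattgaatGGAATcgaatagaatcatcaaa
RE upstream of COL5A1, chr9:134554834-134555033: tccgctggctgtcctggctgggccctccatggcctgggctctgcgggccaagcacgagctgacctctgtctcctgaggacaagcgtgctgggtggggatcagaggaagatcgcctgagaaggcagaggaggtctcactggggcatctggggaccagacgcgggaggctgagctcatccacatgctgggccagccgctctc
RE nearest AGPAT4, chr6:161319290-161319489: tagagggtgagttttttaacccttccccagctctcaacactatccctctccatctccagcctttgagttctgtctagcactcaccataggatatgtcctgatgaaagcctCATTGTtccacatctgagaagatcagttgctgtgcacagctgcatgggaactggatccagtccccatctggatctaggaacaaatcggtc

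The 2 chromosome 16 stretches held 7 and 8 copies of GGAAT, and the AGPAT4 stretch held 1 match to the SOX letters. No SOX letters were found in the COL5A1 stretch. Over the central 500 bp of all REs, SOX letters were found in 45.6%.

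Differences between a treated WT library and its own vehicle were the smallest of the kinds of pair compared. The median absolute log2 difference over all REs, with 0.5 CPM added, was 0.120 to 0.163 in the 6 treated libraries. Between the 24 h and 3 h libraries, both with 500 nM, it was 0.171 in R4 and 0.164 in R5. Libraries of 1 differentiation that had both received the compound thus differed at least as much from each other as from their vehicle. Vehicle libraries of different differentiations differed by 0.233 to 0.318, and SOX9-tagged libraries at 500 nM differed from their own vehicle by 0.212 to 0.251.

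**Figure D1:**
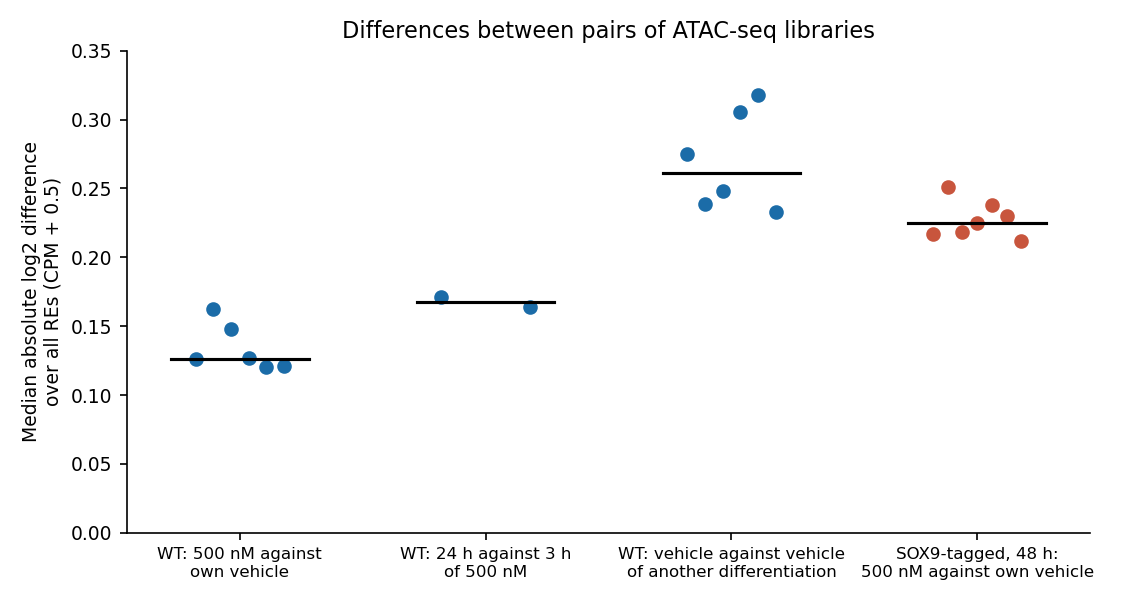
Each point is 1 pair of libraries, with the median absolute log2 difference over all REs (CPM plus 0.5) on the y axis and the kind of pair on the x axis. Bars give the median of each kind. The 6 WT pairs of 500 nM against own vehicle sit between 0.120 and 0.163, below all 6 vehicle pairs from different differentiations and all 7 SOX9-tagged pairs.

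The changes of single REs recurred little from one differentiation to the next. Over 115,573 REs with a mean count of at least 50, Pearson's r between the log2 changes of 2 WT differentiations ran from -0.18 to 0.13 over 13 pairs of treated libraries. Most of these pairs set unlike times beside each other. At the same time r was -0.06 at 3 h and 0.006 at 24 h (R4 and R5), and 0.12 at 48 h (R8 and RSh). Between SOX9-tagged replicates, all at 48 h, r ran from 0.57 to 0.82 over 21 pairs. Some pairs share a batch, and REs are not independent, so these values are descriptions. The WT changes followed base composition to unequal degrees. The correlation of the log2 change with the GC content of the RE was -0.48 in the R5 3 h library, -0.27 in R4 24 h and -0.20 in R8 48 h, against 0.24 in RSh 48 h, 0.08 in R4 3 h and -0.03 in R5 24 h. Over the 7 SOX9-tagged replicates at 48 h it ran from -0.23 to 0.10.

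Whether the compound on its own changed accessibility at any RE was asked first over all 6 treated samples, with differentiation as a block. No RE of 151,457 passed an adjusted p of 0.05 with edgeR's quasi-likelihood test (percent called 0), and the lowest adjusted p was 0.99997. DESeq2 also called 0. An unadjusted p under 0.05 was reached by 5784 REs (3.82%), of which 3681 were higher (2.43%) and 2103 lower (1.39%), and by 3212 REs with DESeq2. Accessibility above that of the own vehicle in 6 of 6 treated libraries was seen at 4662 REs (3.08%), and below it at 3865 REs (2.55%). The 95% interval of the pooled log2 change lay between -0.5 and 0.5 for 126,248 REs (83.4%) and between -1 and 1 for 99.9%. Its median width was 0.740 among the REs with a mean count up to 82.3 and 0.332 among those with a mean count of at least 410.5, so small changes at weak REs were not detectable at this depth.

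The RE of lowest p, printed above, lay 86,619 bp from the start of COL5A1, which encodes a chain of the fibril-forming collagen V (chr9:134554684-134555184). Its normalized count fell from 7.71 CPM in the R4 vehicle to 6.15 at 3 h and 5.38 at 24 h, from 9.04 in the R5 vehicle to 6.78 and 6.58, from 12.98 to 8.71 in R8 and from 20.1 to 16.3 in RSh. Every treated library was below its own vehicle, yet the vehicle levels of the 4 differentiations spanned a wider range than any of these drops. The pooled log2 change was -0.43 (SE 0.079, 95% interval -0.60 to -0.26) with an unadjusted p of 2.31e-05, and it did not pass the adjusted threshold.

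The other 4 REs of lowest p among those that were lower also missed the threshold. An intronic RE of TMEM266 had a pooled log2 change of -0.47 (SE 0.10) and an RE over an untranslated exon of MSI1, the RNA-binding protein Musashi, had -0.47 (SE 0.10). An RE nearest DAND5, a secreted Nodal antagonist, had -0.80 (SE 0.18), and one nearest PPP2R2D, a regulatory subunit of protein phosphatase 2A, -0.29 (SE 0.066). The DAND5 RE went from 2.17 to 0.675 CPM in R8 and from 0.997 to 0.454 CPM in RSh, but from 2.33 only to 1.86 and 2.19 CPM in R5. In each of these 4 REs, too, 6 of 6 treated libraries were below their vehicle.

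The 5 REs of lowest p that were higher had pooled log2 changes of 0.52 to 1.14. The 2 largest of these rested on few reads, with a mean of 31 and 43.3 per library against a median of 164.9 over all REs. A coding exon of CCDC190 had a pooled log2 change of 1.098 (SE 0.229), with 0.183 to 0.475 CPM in the vehicle samples and 0.428 to 0.807 CPM in the treated samples. An RE nearest GOLGA6L6, of a multicopy golgin-like family where reads may be shared between copies, had 1.14 (SE 0.26). It rose from 0.411 to 1.53 and 1.70 CPM in R5 but stood at 0.479 and 0.499 CPM in R8. An intron of SMARCAL1-AS1 had 0.52 (SE 0.11), an intron of the fibrillar collagen gene COL24A1 0.64 (SE 0.14) and an intergenic RE nearest the sodium-calcium exchanger gene SLC8A1 0.62 (SE 0.14). None passed the adjusted threshold.

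**Figure D2:**
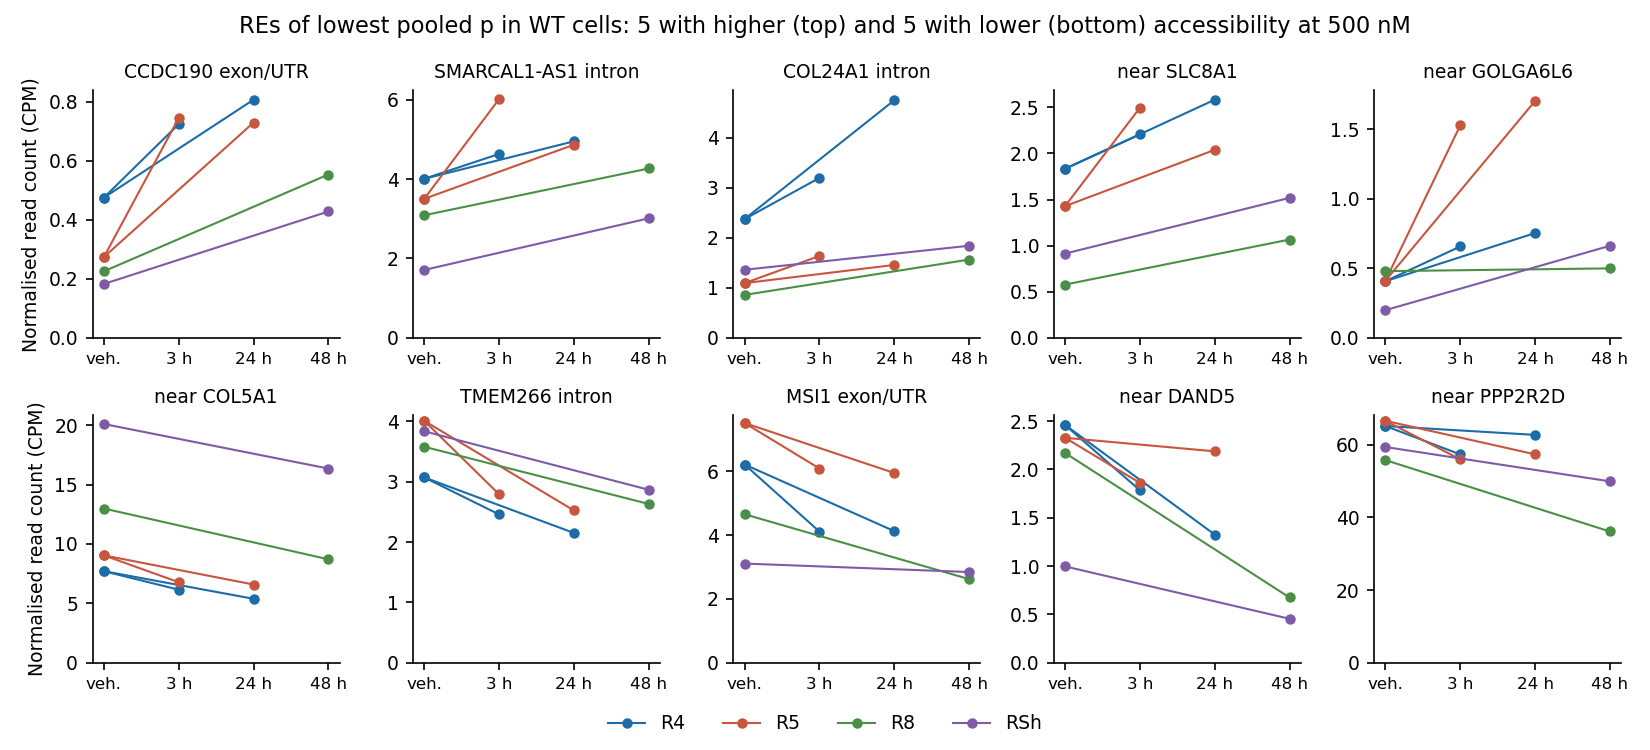
Normalized read counts (CPM, y axis) of the 10 REs of lowest p in the pooled comparison, by vehicle and time with 500 nM (x axis). Each line joins the vehicle library of 1 differentiation to 1 treated library of it. All 6 lines go the same way in each panel, for COL5A1 from between 7.71 and 20.1 CPM down to between 5.38 and 16.3 CPM.

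Each time point was then read from 1 fit of all 10 samples. At 3 h, 24 h and 48 h no RE passed an adjusted p of 0.05 with edgeR (percent called 0 each), and an unadjusted p under 0.05 was reached by 5338 (3.52%), 6237 (4.12%) and 5503 REs (3.63%). DESeq2 called 2 REs at 3 h (0.00132%), 0 at 24 h and 0 at 48 h, with 1163, 1861 and 1715 at an unadjusted p under 0.05. The test of whether the effect differed between times called 0 REs with edgeR, where the lowest adjusted p was 0.0832 and 6954 REs (4.59%) had an unadjusted p under 0.05. With DESeq2 it called 6 (0.00396%), with 1937 at an unadjusted p under 0.05. These 6 lay nearest SMOC1, BANP and ATP6V1B2 and in introns of VPS53, DSCAM and VAV2, and all but VPS53 also passed with edgeR once a trend on mean abundance was removed (5 REs, 0.0033%).

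The SMOC1 RE shows the kind of value behind them. It lies 798 bp from the start of SMOC1, which encodes a secreted calcium-binding matrix protein. It stood at 20.5, 26.0 and 11.5 CPM in R4 (vehicle, 3 h and 24 h), at 3.54, 4.15 and 2.49 CPM in R5, at 35.2 and 38.5 CPM in R8 and at 19.2 and 18.1 CPM in RSh. The 24 h libraries were lower and the 3 h libraries higher than vehicle, and the vehicle level differed between R5 and R8 far more than any of these. Its log2 change at 24 h was -0.71 (SE 0.14, edgeR adjusted p = 0.753).

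The REs of lowest p at 3 h and 24 h were tandem repeats. All 3 of lowest p among those higher at 3 h, and all 3 at 24 h, lay on chromosome 16 near the centromere and were made of the GGAAT pentamer shown above, the repeat unit of human satellites II and III. The RE at chr16:34587874-34588374 rose from 1.51 to 2.88 (3 h) and 2.65 CPM (24 h) in R4 and from 1.76 to 6.46 and 5.55 CPM in R5, but stood at 2.41 and 2.07 CPM in R8 and at 2.14 and 1.83 CPM in RSh. Its log2 change was 1.42 at 3 h (SE 0.21, edgeR adjusted p = 0.0995), 1.25 at 24 h (SE 0.21, edgeR adjusted p = 0.356) and -0.22 at 48 h (SE 0.20). This RE and the one at chr16:46390393-46390893 were those that DESeq2 called at 3 h (adjusted p = 0.0191 for both). The same 2 passed with edgeR when a trend on mean abundance was removed (adjusted p = 0.0421 and 0.0454) and when a trend on GC content was removed (adjusted p = 0.0171 for both).

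Because this sequence was noticed in the results, its REs were gathered by sequence and are described without a test. Of all REs 16 held at least 15 copies of GGAAT on 1 strand, and 14 of these were intergenic: 12 on chromosome 16, 1 on chromosome 1 and 1 on chromosome 20. Their summed level in R4 was 10.9 CPM with vehicle, 21.5 CPM at 3 h and 20.1 CPM at 24 h, and in R5 it was 17.2, 46.1 and 43.0 CPM. In R8 it was 14.7 CPM with vehicle and 12.5 CPM at 48 h, and in RSh 13.96 and 12.3 CPM. All 14 were above their vehicle in each of the 4 treated R4 and R5 libraries, which share 2 vehicle libraries, and 2 of 14 were above it in each 48 h library. GGAAT-rich REs inside genes, with 16 copies each, were not in these sums and did not follow them at all times. The RE in a noncoding exon of GRIN2B had log2 changes of -0.03 (R4) and 0.002 (R5) at 3 h, and of -0.13 and -0.29 at 24 h. The RE in an intron of SNX30 was above its vehicle in 6 of 6 libraries. Its log2 changes were 0.21 (R4) and 0.43 (R5) at 3 h, and 0.20 and 0.39 at 24 h, the direction of the 14 intergenic REs. At 48 h it departed from them, with 0.44 in R8 and 0.34 in RSh.

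The same 14 REs also varied among SOX9-tagged libraries, with no common direction. In SOX9-tagged S9CC13 cells of R4 they summed to 20.8 CPM with vehicle, 23.9 CPM at 3 h and 12.95 CPM at 24 h. In the 48 h SOX9-tagged libraries, S9CC47 of R5 went from 36.8 to 461 CPM, S9CC13 of R10 from 27.4 to 50.2 CPM and S9CC47 of R6 from 32.9 to 17.4 CPM. Reads from repeats of this kind cannot be placed on 1 copy with certainty.

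**Figure D3:**
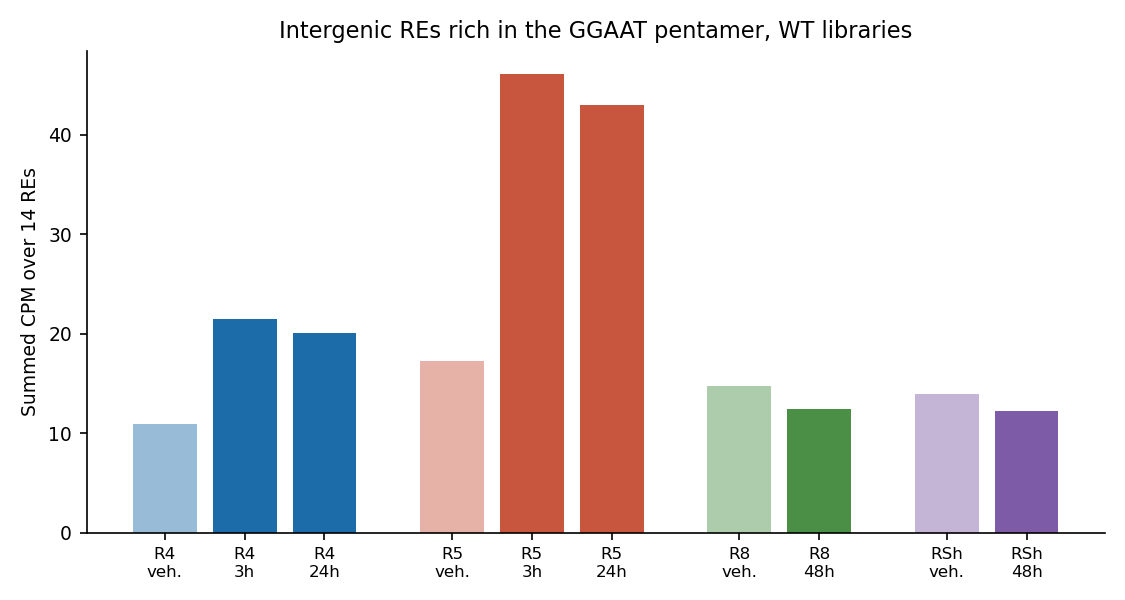
Summed normalized read count (CPM, y axis) over the 14 intergenic GGAAT-rich REs in each of the 10 WT libraries (x axis), with pale bars for vehicle and full bars for 500 nM. The treated R4 and R5 bars reach 20.1 to 46.1 CPM from vehicle bars of 10.9 and 17.2 CPM, and the R8 and RSh bars stay between 12.3 and 14.7 CPM.

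Among the REs that were lower at 3 h, REs nearest TENM3 and in an intron of NEK6, a mitotic kinase, had log2 changes of -0.87 (SE 0.23) and -0.74 (SE 0.20) at 3 h. At 24 h an RE nearest BANP had -1.13 (SE 0.21) and 1 nearest SPDYE21 -1.57 (SE 0.30), again with vehicle levels that differed widely, from 0.548 CPM in R5 to 4.27 CPM in R8 for SPDYE21.

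At 48 h the 3 REs of lowest p in each direction moved the same way in R8 and RSh, which a choice by p in these libraries favours. At the earlier times their log2 changes lay between -0.25 and 0.11, other than for the DAND5 RE. An intron of ACYP2, an acylphosphatase gene, went from 3.75 to 6.98 CPM in R8 and from 4.15 to 6.62 CPM in RSh (log2 change 0.78, SE 0.16). REs nearest ITM2A and nearest MTRR, the methionine synthase reductase gene, had 0.99 (SE 0.19) and 0.50 (SE 0.10). An intron of TMCC2 went from 1.09 to 0.310 and from 0.980 to 0.376 CPM (log2 change -1.58, SE 0.31), and REs nearest DAND5 and the formin gene DIAPH3 had -1.45 (SE 0.26) and -0.97 (SE 0.20). The lowest edgeR adjusted p at 48 h was 0.99998.

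Fitted alone, the 4 samples of R8 and RSh gave 459 REs with an edgeR adjusted p under 0.05 (0.303%). All 6 named above were among them, but they had been chosen on the same R8 and RSh libraries. The fit of these 4 samples has 1 residual degree of freedom. Of the 239 that were higher in it (SOX9-tagged cells took no part), 162 (67.8%) were among the REs that fell by more than 1 on the log2 scale in SOX9-tagged cells, a class that holds 5873 REs (3.88%). Of the 220 that were lower, 6 (2.73%) were. SOX letters were found in 70.3% of the 239 and 35% of the 220, against 45.6% of all REs.

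The 459 REs were read in R4 and R5, which the fit did not use. Of the 239, 141 were above vehicle in R4 at 3 h and 166 at 24 h, and 161 and 99 in R5; over all REs the shares above vehicle were 49.7%, 50.1%, 60.1% and 47.6% in these 4 libraries. Of the 220, 158 and 106 were below vehicle in R4 at 3 h and 24 h, and 97 and 180 in R5. The shares of the 220 above vehicle were 28.2% and 51.8% in R4 and 55.9% and 18.2% in R5. In R5 at 3 h that share was below the 60.1% of all REs, and in R4 at 24 h it was close to the 50.1%. The direction of 48 h was thus kept at most REs in some of these libraries and not in others.

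REs that changed on loss of tagged SOX9 were read next in WT cells, to see how far the compound moved them without the tag. In SOX9-tagged cells at 48 h, 36,546 REs passed an adjusted p of 0.05 (edgeR, 24.1%), and the WT samples took no part in that choice. Of the 10 that fell most, the 9 described here had log2 changes of -5.28 to -4.80 in SOX9-tagged cells. Their pooled log2 change in WT was 0.007 to 0.204, with intervals between -0.13 and 0.36. At the matched time of 48 h the WT changes were larger and all above 0, from 0.11 to 0.44, with intervals between -0.10 and 0.65. At 4 of the 9 the 48 h change reached an unadjusted p under 0.05 (2.07% of all REs were higher by that threshold), and none passed the adjusted threshold. No WT interval reached the loss seen with the tag.

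The intergenic RE nearest AGPAT4, a lysophosphatidic acid acyltransferase gene, went from 20.4 ± 7.46 CPM to 0.540 ± 0.157 CPM with the tag (SD, n = 7 each). In WT it stood at 55.8, 53.6 and 56.4 CPM in R4 (vehicle, 3 h and 24 h), at 34.6, 37.2 and 32.8 CPM in R5, at 31.2 and 37.0 CPM in R8 (vehicle and 48 h) and at 34.9 and 36.9 CPM in RSh. Treated and vehicle levels overlapped. The pooled log2 change in WT was 0.07 (SE 0.062). The test of the difference between genotypes at 48 h gave -5.45 (SE 0.21, edgeR adjusted p = 9.77e-17). It shares the SOX9-tagged libraries that the RE was chosen from.

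An RE over an untranslated exon of POLR2F, 9675 bp from the start of the neural crest and glial factor gene SOX10, went from 11.4 ± 5.87 CPM to 0.318 ± 0.117 CPM with the tag (SD, n = 7 each), from 13.9 to 19.5 CPM in WT R8 and from 18.7 to 20.7 CPM in WT RSh. The other 7 lay in DIAPH1, ACTN4, TPST1, ADAMTSL1, ITGA1 and OR6B3 and nearest SLC30A5. At all 9 the difference between genotypes passed the threshold, at a highest adjusted p of 7.14e-12 (edgeR). The test uses the SOX9-tagged libraries that these REs were chosen from. Its large difference therefore follows in part from the choice, and only the WT values are independent of it.

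The 5 REs that rose most with the tag, by 2.08 to 2.21 on the log2 scale, had WT changes of -0.34 to 0.29. They lay nearest C4orf33, INTS6L, MYOM2 and MKI67 and in an intron of RNF144A, a ubiquitin ligase gene. Each difference between genotypes passed, at a highest adjusted p of 0.000936 (edgeR), again in part through the choice of REs from the same SOX9-tagged libraries. Their WT intervals were wider, from -0.69 to 0.79, since 4 of the 5 had few reads.

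**Figure D4:**
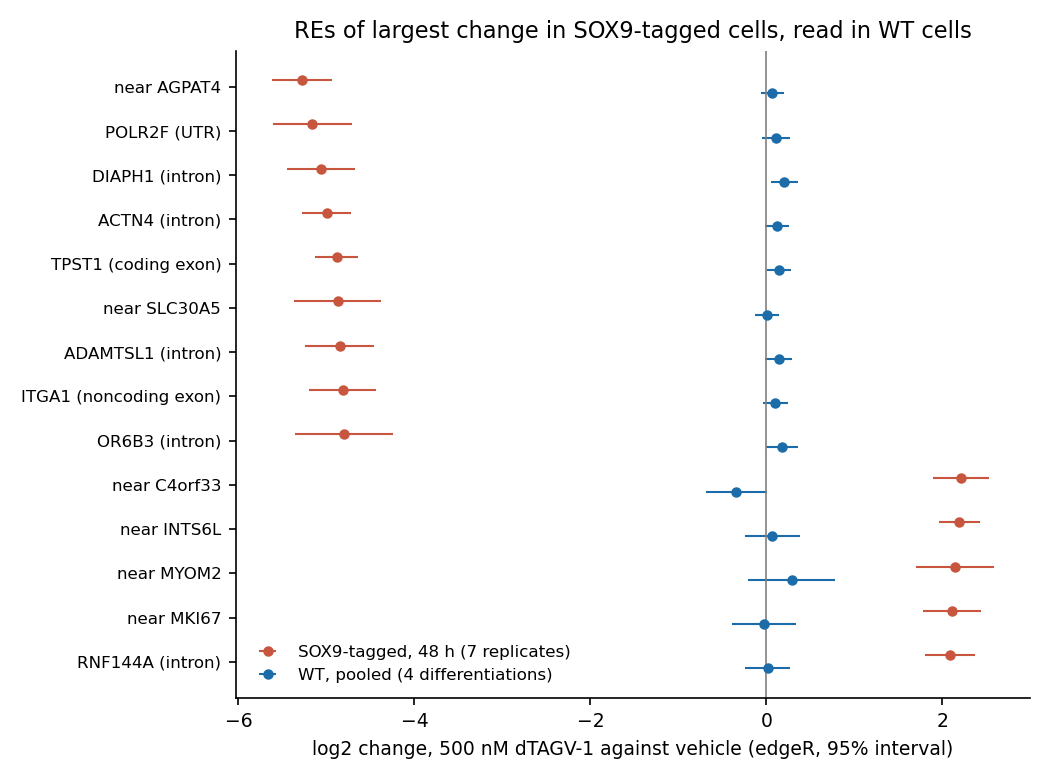
log2 change at 500 nM against vehicle (x axis, edgeR, bars are 95% intervals) for 9 of the 10 REs that fell most and the 5 that rose most in SOX9-tagged cells at 48 h, in SOX9-tagged (red) and WT cells (blue, pooled over times). The red points lie at -5.28 to -4.80 and at 2.08 to 2.21, and the blue points lie between -0.34 and 0.29.

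Over all REs, the effect of 500 nM at 48 h differed between SOX9-tagged and WT cells at 16,423 REs (10.8%, edgeR adjusted p under 0.05). The SOX9-tagged effect was the lower of the pair at 11,034 of them (7.29% of all REs) and the higher at 5389 (3.56%). Of the 16,423, 15,830 were also SOX9-dependent in the tagged cells alone and 593 were not, but both tests use the same SOX9-tagged libraries. Only R8 and RSh represent WT in this test.

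SOX9-dependent REs that fell strongly with the tag leaned the other way in WT at 48 h. The 5873 REs that fell by more than 1 with the tag had a median log2 change of 0.164 in WT at 48 h, against 0.005 for all REs, and 1093 of them (18.6%) were higher at an unadjusted p under 0.05, against 2.07% of all REs. None passed the adjusted threshold, and 23 (0.392%) were lower at an unadjusted p under 0.05, against 1.56% of all REs. The median was 0.208 in R8 and 0.077 in RSh. With R8 left out, so that RSh alone gave the 48 h value, 2.33% or 2.28% of the class were higher against 1.09% or 1.08% of all REs, according to whether the vehicle or the treated R8 library was dropped. With RSh left out it was 16.9% or 16.8% against 1.6%.

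At the earlier times the class did not lean the same way throughout. At 3 h, 173 of the 5873 REs (2.95%) were higher and 17 (0.289%) lower at an unadjusted p under 0.05, against 2.49% and 1.04% of all REs. At 24 h, 316 (5.38%) were lower, in the direction of the tagged cells, and 100 (1.70%) higher, against 2.44% and 1.67% of all REs. Of all 21,114 REs that were lower with the tag, 1541 (7.30%) were lower and 254 (1.20%) higher at 24 h. The median of the class was 0.001 in R4 and 0.092 in R5 at 3 h, where the median of all REs was -0.002 and 0.057, and 0.068 in R4 and -0.053 in R5 at 24 h, where it was 0.001 and -0.011. The class held SOX letters in 75.4% of its REs and had a median GC content of 45.7%, against 48.1% for all REs. With a trend on GC content removed the 48 h median was 0.162 and the share 25.2%, against 2.91% of all REs. The 7 SOX9-tagged replicates had medians of -1.39 to -0.89 over the same REs, which follow from the choice. In R8, the 1 differentiation with both genotypes at 48 h, the class had a median of -1.35 in SOX9-tagged S9CC47 and 0.208 in WT.

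**Figure D5:**
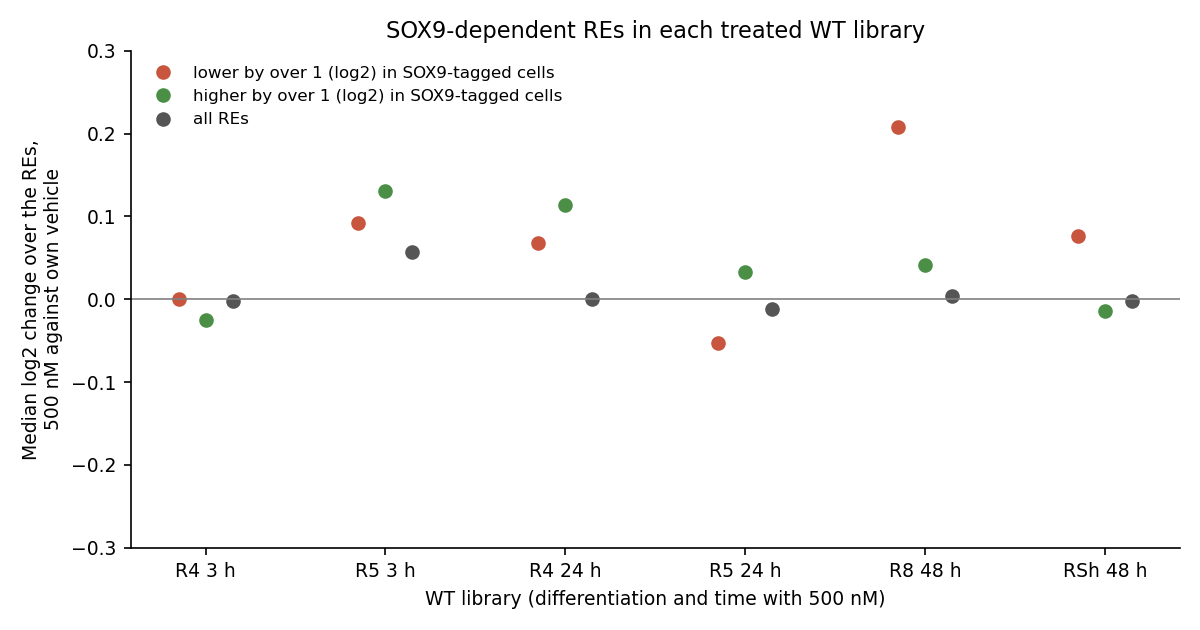
Median log2 change (y axis) in each treated WT library against its own vehicle (x axis) over REs that fell by more than 1 (red) or rose by more than 1 (green) with 500 nM in SOX9-tagged cells, and over all REs (grey). The red points are highest in R8 48 h, at 0.208, and lie between -0.053 and 0.092 in the other 5 libraries.

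The SOX9 locus itself was read at 19 REs, in the gene or within 100 kb of its start and nearest to it. None reached an unadjusted p under 0.05 in the pooled comparison, where 3.82% of all REs did, a share that would be under 1 RE of 19. Their pooled log2 changes ran from -0.17 to 0.19. At single times, the RE at chr17:72027418-72027918 was higher at 3 h (0.49, SE 0.19) by that threshold. The RE at chr17:72211619-72212119 was lower at 24 h (-0.70, SE 0.27) by it. Over all REs, 2.49% were higher at 3 h and 2.44% lower at 24 h. Promoter REs of 17 of 18 chondrogenic genes (SOX5, SOX6, COL2A1, ACAN and others, 49 REs) had a pooled median of -0.003, with 0 REs at an unadjusted p under 0.05 (3.82% of all REs), and 48 of the 49 intervals lay between -0.5 and 0.5. At single times 1 of the 49 reached that threshold, lower at 24 h, against 2.44% of all REs.

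Promoters of ligase and HIF genes, immunophilins, proteasome subunits, and stress and immediate early genes were read next, by lists of genes. No RE in any list passed the adjusted threshold in the pooled comparison or at any time. In the ligase and HIF machinery (VHL, ELOB, ELOC, CUL2, RBX1, HIF1A and others), 1 of 26 REs had an unadjusted p under 0.05, a share close to the 3.82% of all REs, and the median pooled log2 change was -0.003, against 0.007 for all REs. That RE, at an internal start of the scaffold gene CUL2, was lower in 6 of 6 libraries (log2 change -0.47, SE 0.19) at 44 reads per library, while the 4 other CUL2 REs had 0.01 to 0.14. The VHL promoter had 0.04 (SE 0.088), with 8.69 to 11.4 CPM in vehicle and 8.46 to 12.8 CPM in treated libraries. At single times 1 of the 26 REs had an unadjusted p under 0.05, lower at 48 h, against 1.56% of all REs.

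Of 102 REs at 36 HIF target genes, such as CA9, VEGFA, EGLN3 and SLC2A1, 1 had an unadjusted p under 0.05 in the pooled comparison, against 3.82% of all REs. It covered a coding exon of CITED2, a HIF-induced gene whose product competes with HIF for CBP and p300 (log2 change 0.23, SE 0.11, higher in 5 of 6 libraries). At single times, 3 were lower and 1 higher at 3 h, 2 lower and 1 higher at 24 h, and 1 lower and 1 higher at 48 h, by the same threshold. Over all REs, 1.04% were lower and 2.49% higher at 3 h. The shares were 2.44% and 1.67% at 24 h, and 1.56% and 2.07% at 48 h. The list's median was -0.007 in the pooled comparison, -0.102 at 3 h, -0.040 at 24 h and 0.043 at 48 h, against 0.023, -0.005 and 0.005 for all REs at the 3 times, and 98 of the 102 pooled intervals lay between -0.5 and 0.5. A median below 0 at 3 h was not particular to HIF targets. In the other lists it ran from -0.074 (immediate early) to -0.036 (chondrogenic). All lists hold promoter REs, which are 24.7% of all REs.

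In the FKBP and immunophilin list, which holds FKBP1A, the gene of the natural relative of the degron, 0 of 26 REs had an unadjusted p under 0.05 in the pooled comparison (3.82% of all REs). The 3 FKBP1A REs had log2 changes of -0.10 (SE 0.21), 0.05 (SE 0.10) and -0.05 (SE 0.081). Among 48 REs of 31 proteasome subunit genes 1 had an unadjusted p under 0.05 (3.82% of all REs), an intronic RE of SS18L1 near the start of PSMA7 (log2 change 0.25, SE 0.10, higher in 6 of 6 libraries). At single times 1 of the 48 reached that threshold, lower at 24 h, against 2.44% of all REs. The heat shock (34 REs), unfolded protein and integrated stress (26 REs) and immediate early lists (41 REs) had 0 in the pooled comparison, again against 3.82% of all REs, with medians of -0.027, 0.007 and -0.010. The REs of lowest p in them lay at CRYAB (-0.20, SE 0.11), XBP1 (-0.19, SE 0.10) and JUN (-0.10, SE 0.057). At 3 h, 3 of the 26 REs of the unfolded protein and integrated stress list were lower at an unadjusted p under 0.05, against 1.04% of all REs. They lay at XBP1 (-0.42, SE 0.16), DNAJB9 (-0.31, SE 0.14) and ASNS (-0.26, SE 0.12), and each was lower in both R4 and R5. The share of 1.04% is not limited to promoter REs, as the list is. Promoter REs made up 51.2% of all REs lower at 3 h by that threshold, against 24.7% of all REs. At 48 h, an RE of ATF3, which stands in the stress and immediate early lists, was higher by that threshold (0.46, SE 0.15), as was 1 of HSPA9 in the heat shock list (0.28, SE 0.13), against 2.07% of all REs. These 5 REs were named after their values were seen, and none passed the adjusted threshold.

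REs with an unadjusted p under 0.05 differed in base composition by direction. In the pooled comparison the 3681 that were higher had a median GC content of 43.5% and the 2103 that were lower 55.7%, against 48.1% for all REs. At 3 h, 51.2% of the 1571 lower REs (1.04% of all) were promoter REs, against 24.7% of all REs. SOX letters were found in 60.3% of the higher and 36.8% of the lower REs in the pooled comparison, and the part that base composition plays in this was not tested.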

How the data were processed

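ATAC-seq of 10 untagged WT CNCC samples was analysed from the count table deposited by the authors: whole-number read counts per RE, 1 column per sample. The authors trimmed adapters, aligned reads to hg38 with Bowtie2 2.4.1, removed duplicates and reads of low mapping quality, called summits with MACS2 2.2.7.1 in each sample and merged the recurrent ones into 1 set of REs; the counting tool is not given in the sources used here. Columns of the 3 SOX9-tagged R5 time-course samples, whose header and title name different clones, were not used.

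Counts were tested with edgeR 4.0.16 (R 4.3.3; TMM, trended dispersion, quasi-likelihood F test, Benjamini-Hochberg over all 151,457 REs, threshold 0.05, no count filter) with differentiation as block; DESeq2 1.42.0 was the other tool. Same-numbered samples come from the same differentiation batch per the labels, so the block pairs them. The pooled fit had 1 treatment term, the time fit 3, and the genotype difference used 18 samples with clone by differentiation as block. CPM are scaled by library totals and TMM factors, set separately in WT and SOX9-tagged samples, and by totals alone for the SOX9-tagged R4 time course. Log2 differences between single libraries use CPM plus 0.5. Fits were also run on simulated counts that held no difference between differentiations, unlike these data, and no value above rests on them. Genes, exons and starts are from GENCODE 44; the nearest gene is the nearest protein-coding one, measured from the edge of the RE. Sequences were read from hg38.

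Named REs are the 5 of lowest p in each direction in the pooled comparison, the 3 at each time, the 10 lowest and 5 highest log2 changes in SOX9-tagged cells, and the lowest p of each gene list; 2 of them are not reported here. Members and lists were chosen with earlier results of these data known; the GGAAT-rich REs were chosen after their values were seen. Totals of 50474281 to 81040023 reads per sample set the precision, given as intervals. Alternatives were DESeq2, other size factors, a mean count of at least 50, trends on abundance or GC content removed, no block, samples left out and times fitted alone.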

Additional observations from a re-analysis of the deposited data

Results flagged for a closer look

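Among 82 groups of 4 to 7 libraries checked for a single distant value, 5 held one, where chance gives about 1 in 20. The RE upstream of COL5A1 stood at 16.3 CPM in the treated RSh library, with the next of the 6 treated WT libraries at 8.71 CPM. Among the 4 WT vehicle libraries, the RE nearest AGPAT4 stood at 55.8 CPM in R4 (next 34.9), the intronic RE of RNF144A at 16.7 CPM in R5 (next 3.70), and a GGAAT-rich RE at chr16:46386190-46386690 at 0.424 CPM in R4 (next 0.598). Over the 7 SOX9-tagged libraries at 500 nM, the 14 GGAAT-rich REs summed to 461 CPM in S9CC47 of R5 (next 50.2).

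The effect of 500 nM at 48 h differed between genotypes at 16,423 REs, by the test of the difference itself. The differences of log2 changes (SOX9-tagged minus WT) were -5.45 at AGPAT4, -5.50 at POLR2F, -5.51 at DIAPH1, -5.28 at ACTN4, -5.13 at TPST1, -5.03 nearest SLC30A5, -4.97 at ADAMTSL1, -5.00 at ITGA1 and -5.09 at OR6B3. They were 2.58 nearest C4orf33, 2.23 nearest INTS6L, 2.12 nearest MYOM2, 2.37 nearest MKI67 and 2.31 at RNF144A. All these REs were chosen by their change in the same SOX9-tagged libraries, so the size of the differences follows in part from the choice.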

How the results depend on the processing

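The pooled count of 0 REs was the same under all 6 other settings and all 14 fits that left out a library or a differentiation. At 3 h, DESeq2, removal of an abundance trend and removal of a GC trend each called 2 REs, and leaving out 1 library gave 0 to 3136. The 3136 came without the R4 3 h library, so that R5 alone gave the value and was assumed to vary like the other groups. Of them 3014 were lower, with a median GC content of 66.1%, and 89.6% of these were promoter REs. Without the R5 3 h library the count was 5 and without the R4 vehicle 3, with the 2 GGAAT-rich REs among the latter. At 24 h, leaving out 1 library gave 0 to 393 (393 without the R5 24 h library, 165 and 145 without the R5 and R4 3 h libraries). At 48 h it gave 0 to 13 (13 and 8 without the R4 and R5 3 h libraries), and the 48 h samples fitted alone called 459. The difference between times was called at 6 REs by DESeq2 and at 5 after an abundance trend was removed.

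The difference between genotypes at 48 h was called at 2472 REs with no replicate block, all among the 16,423, and at 7381 and 8514 without WT R8 and WT RSh. With no replicate block the WT counts were 0 in the pooled comparison and at each time. The share of the 5873 REs that was higher at 48 h, read in other fits after the data were seen, was 9.77% with DESeq2, against 0.625% of all REs, and 0.0511% with no replicate block, where the class had a median log2 change of -0.07. With R8 left out the RE nearest MYOM2 lost its call (adjusted p = 0.150, edgeR), and with no replicate block those nearest C4orf33, INTS6L, MYOM2 and MKI67 did (adjusted p = 0.0714 to 0.347, edgeR). Among REs with a mean count of at least 50, the median absolute log2 difference between 24 h and 3 h was 0.162.

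With 4 differentiations and 2 at each time, single-time intervals lay between -0.5 and 0.5 for 44.9% to 48.7% of REs, and the intervals of the other REs reached beyond that size. The cause of each moved count was not tested.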
